A study of Mus musculus with 18 samples.

Results

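The 9 genes described here encode receptors through which cytokines act on blood cells: *Kit*, *Flt3*, *Epor*, *Csf2ra*, *Csf2rb*, *Csf3r*, *Il3ra*, *Il5ra* and *Il6ra*. They were listed by name, by a rule that uses no measured value, and all 9 were found among the 20310 genes of the table of differentiation stages and the 20495 genes of the table of fibroblasts. The first table holds RNA-seq from mouse embryonic stem cells (ESCs, strain 129, with a *Brachyury* GFP reporter, cultured on mouse embryonic fibroblasts) and from the populations sorted as they differentiated into mesoderm (MES, Bry:GFP+/Flk1-), hemangioblast (HB, Bry:GFP+/Flk1+), hemogenic endothelium (HE, Tie2+/cKit+/CD41-), hematopoietic progenitors (HP, CD41+) and macrophages (MAC, CD11b+). ESC, MES, HB, HP and MAC each had 2 replicates, which the deposited table combines into 1 value per stage, and the HE value is the one listed in the same table, whose samples belong to an earlier series. The second table holds 8 libraries of mouse embryonic fibroblasts of strain 129, 1 per condition and day: untreated (uFIB), or given Scl with Lmo2 (SL), all of Scl, Fli1, Gata2 and Lmo2 (SFGL), or these factors without Scl (FGL), harvested at day 12 or at day 21. Scl is the protein made by *Tal1*. In the study's methods the fibroblasts were wild type or carried a doxycycline-inducible *Tal1* transgene, the factors came from expression vectors or that transgene, and which cells made which library is not given in the sources used here. The starting fibroblasts were depleted of cells bearing CD45, CD41, CD31 or CD117 (the protein made by *Kit*), and the culture medium held the ligands of several of these receptors, among them Kit ligand, IL3, GM-CSF, erythropoietin and IL6. No column has replicate values, so differences are given as sizes, without error or p-value. No value here separates fewer cells expressing a gene from less RNA per cell.

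Cytokine receptors fall into a small number of structural classes. Kit, the receptor for stem cell factor, and Flt3 are receptor tyrosine kinases. The receptors for erythropoietin (Epor) and for G-CSF (Csf3r) work as pairs of identical chains that carry JAK kinases, and ligand binding leads to phosphorylation of STAT proteins. The receptors for GM-CSF, IL3 and IL5 each have an alpha chain of their own (Csf2ra, Il3ra, Il5ra) that binds the ligand, and they share the signalling beta chain Csf2rb. The IL6 receptor alpha chain Il6ra signals through a partner, gp130, made by *Il6st*. In adult hematopoiesis Kit is known for stem and progenitor cells and mast cells, Epor for red cell precursors, Csf3r for neutrophils, Il5ra for eosinophils and the GM-CSF receptor for myeloid cells.

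In the coordinates of the stage table (GRCm38) the members lie on 8 chromosomes. *Kit* spans chr5:75574987-75656721 on the plus strand, *Flt3* chr5:147330742-147400489 on the minus strand, *Epor* chr9:21958899-21963576 on the minus strand and *Csf3r* chr4:126024659-126044975 on the plus strand. *Csf2rb* lies at chr15:78325990-78351001 on the plus strand, beside its close copy *Csf2rb2*, which encodes a beta chain specific for IL3, at chr15:78282510-78305603 on the minus strand. *Csf2ra* is at chr19:61224402-61228418 (minus), *Il3ra* at chr14:14346495-14355490 (plus), *Il5ra* at chr6:106710379-106749037 (minus) and *Il6ra* at chr3:89869324-89913162 (minus). Each has 1 transcription start row, so no member's value is a sum over starts. Of the 50-base stretches of the *Csf2rb* transcripts, 892 of 4851 (18.39%) also occur in those of *Csf2rb2*, so reads from that share cannot be placed on 1 of the 2 genes.

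The 250 bases before an annotated start are shown for 4 members whose levels moved most between stages or libraries and for which RefSeq (GRCm38.p6) lists a promoter. In RefSeq the *Csf3r* gene begins at 126023441, before its window, so that window lies inside the gene. The *Csf2ra* gene reaches 61228461, so the GAGGAA matches of its window lie inside the gene too. Capitals mark matches, on either strand, to the GATA words (AGATAA or AGATAG, and likewise TGATAA or TGATAG), to the core GAGGAA recognized by the myeloid factor PU.1, and to the core TGTGGT recognized by RUNX factors.
Kit promoter, chr5:75574737-75574986, plus strand: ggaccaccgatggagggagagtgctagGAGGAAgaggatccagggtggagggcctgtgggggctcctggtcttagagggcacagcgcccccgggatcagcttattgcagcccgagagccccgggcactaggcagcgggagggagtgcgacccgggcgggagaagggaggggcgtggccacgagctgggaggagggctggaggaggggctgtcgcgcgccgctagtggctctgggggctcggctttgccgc
Epor promoter, chr9:21963577-21963826, minus strand: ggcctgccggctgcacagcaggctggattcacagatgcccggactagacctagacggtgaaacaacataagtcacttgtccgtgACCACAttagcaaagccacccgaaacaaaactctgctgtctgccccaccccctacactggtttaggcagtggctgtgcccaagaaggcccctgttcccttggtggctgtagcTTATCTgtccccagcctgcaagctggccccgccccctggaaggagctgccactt
Csf2ra promoter, chr19:61228419-61228668, minus strand: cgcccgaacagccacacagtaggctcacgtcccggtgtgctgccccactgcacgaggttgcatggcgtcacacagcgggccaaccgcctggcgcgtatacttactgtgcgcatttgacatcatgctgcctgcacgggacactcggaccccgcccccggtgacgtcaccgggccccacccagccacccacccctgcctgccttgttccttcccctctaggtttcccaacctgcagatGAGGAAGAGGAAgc
Csf3r promoter, chr4:126024409-126024658, plus strand: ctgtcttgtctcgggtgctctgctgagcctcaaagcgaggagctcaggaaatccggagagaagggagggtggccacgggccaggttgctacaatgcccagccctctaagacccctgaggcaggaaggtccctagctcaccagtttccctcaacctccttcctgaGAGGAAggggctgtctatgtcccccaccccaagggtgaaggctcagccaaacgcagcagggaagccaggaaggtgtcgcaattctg
Among the 8 members with an entry, a GATA word was present in *Epor*, *Il3ra*, *Il5ra* and *Il6ra*, against 26.5% of the 32851 promoters of that length. GAGGAA was present in *Kit*, *Csf2ra*, *Csf3r* and *Il6ra*, with 2 adjoining matches in *Csf2ra*, against 23.3% of promoters. TGTGGT was present only in *Epor* among the 8, against 14% of promoters. The matches describe letters in these windows and say nothing of binding.

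The libraries carried the markers of their labels with the exceptions that follow. The pluripotency genes *Pou5f1*, *Nanog* and *Zfp42* summed to 541 FPKM (fragments per kilobase, a read abundance scaled for transcript length and library size) in ESCs, 4 endothelial markers to 358 FPKM in HE, 4 erythroid markers to 5273 FPKM in HP and 3 macrophage markers to 733 FPKM in MAC. *Tal1* stood at 62.0 FPKM (SL) and 58.0 FPKM (SFGL) at day 12, and at 347 and 119 FPKM by day 21, against 0.0414 and 0.415 FPKM in uFIB. SL, whose label lists no Fli1 and no Gata2, held *Fli1* at 46.7 and 34.4 FPKM (day 12 and day 21). SFGL held *Fli1* at 41.2 and 27.8 FPKM. *Gata2* in SL was at 68.8 and 62.6 FPKM, against 110 and 132 FPKM in SFGL and 1.80 and 2.13 FPKM in uFIB. The library labelled FGL at day 12 held *Tal1* at 7.04 FPKM, although its label lists no Scl and whether its cells carried the inducible *Tal1* transgene is not given, and the library labelled FGL at day 21 held *Fli1* at 3.35 FPKM, near the 3.02 FPKM of uFIB although the label lists Fli1. Read numbers are not part of the files. The steps of low FPKM values put the depth of the other fibroblast libraries at 0.588 to 1.56 times that of uFIB at day 12, from ratios that 15.0% to 19.1% of low genes shared. FGL stands hereafter for the libraries so labelled.

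Along differentiation, the sum of the 9 receptors went from 9.15 FPKM in ESCs to 8.23 in MES, 6.69 in HB, 16.6 in HE, 50.9 in HP and 238 in MAC. The receptor with the highest level was *Kit* in ESCs, MES and HE, *Il3ra* in HB, *Epor* in HP and *Csf2rb* in MAC. The order was close in MES (*Kit* 2.82, *Il3ra* 2.70 FPKM), HB (*Il3ra* 2.12, *Kit* 2.06) and HP (*Epor* 17.6, *Kit* 16.9). With 1 value per stage, the leader of those stages is not settled. *Kit* and *Epor* had their highest level in HP, and the other 7 had it in MAC, although for *Flt3* and *Il5ra* that level was below 0.1 FPKM. A gene was tested where it reached 1 FPKM in at least 1 stage, and was called higher or lower where log2(FPKM + 1) differed by at least 1 (2-fold). Of the 9 members, 7 passed that limit, and *Flt3* and *Il5ra* did not.

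**Figure D1:**
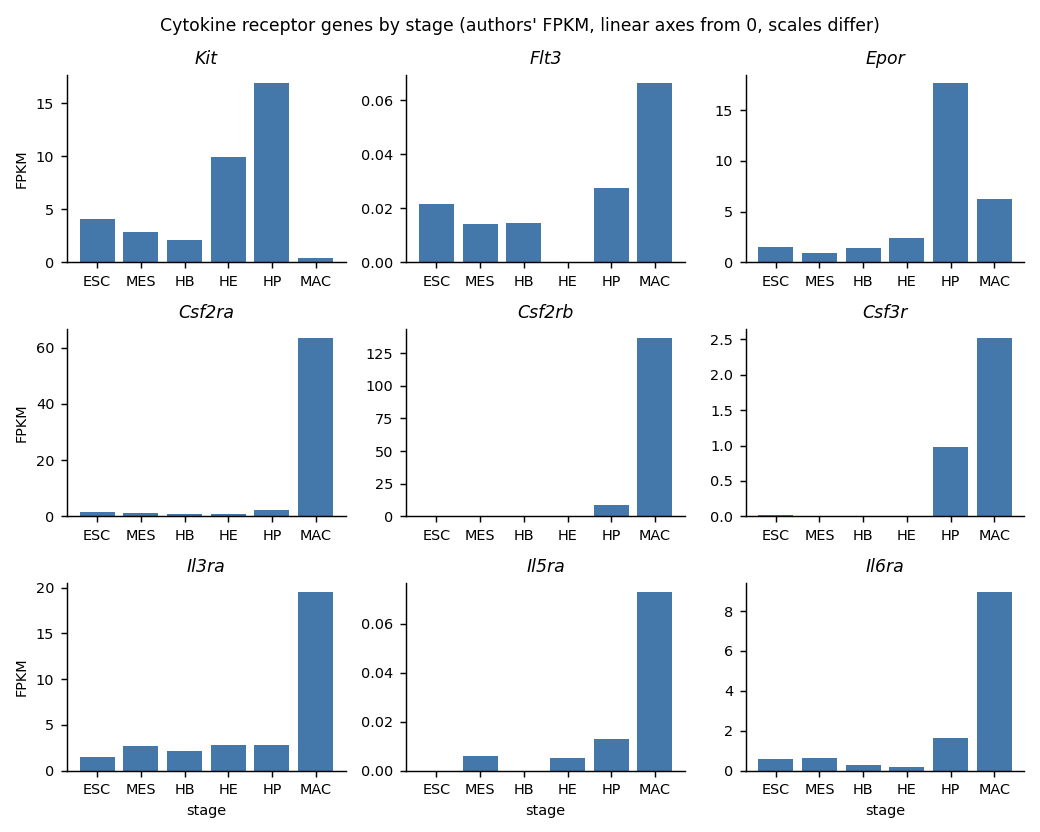
FPKM (vertical axis, linear from 0, with its own scale for each gene) of the 9 receptor genes in each of the 6 stages, 1 bar per stage as the authors' combined value. *Kit* and *Epor* peak in HP at 16.9 and 17.6 FPKM, and *Csf2ra*, *Csf2rb*, *Il3ra* and *Il6ra* rise to their highest bars in MAC.

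Among the receptor tyrosine kinases, *Kit* measured 4.09 FPKM in ESCs, 2.82 in MES, 2.06 in HB, 9.92 in HE, 16.9 in HP and 0.379 in MAC. It was thus present before blood formation, lowest of the early stages in HB, and nearly absent from macrophages. The HE population was sorted on its protein, so the HE level is given as a description only. *Flt3*, a receptor of multipotent and lymphoid-primed progenitors, stayed at or below 0.0662 FPKM in all stages.

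*Epor*, the receptor that red cell precursors need, measured 1.52 FPKM in ESCs, 0.883 in MES, 1.43 in HB, 2.36 in HE, 17.6 in HP and 6.21 in MAC. HP exceeded HE by 2.47 on the log2(FPKM + 1) scale, and MAC was lower than HP by 1.37 on that scale. The macrophage value stood above each stage before HP. Erythroid markers were highest in HP, at a summed 5273 FPKM against 171 in HE and 6.68 in MAC, and their part in the level of *Epor* was not tested. The ratio of *Epor* to *Kit* levels was 0.238 in HE, 1.04 in HP and 16.4 in MAC.

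The shared beta chain *Csf2rb* measured 0.0307 FPKM in ESCs, 0.00335 in MES, 0.00155 in HB, 0.335 in HE, 8.66 in HP and 137 in MAC. It was close to 0 until HE and higher at each step after it, by 2.86 from HE to HP and by 3.83 from HP to MAC (log2(FPKM + 1)). Its copy *Csf2rb2* followed at lower levels, with 0.0539 FPKM in HE, 1.96 in HP and 32.6 in MAC.

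The alpha chains took another course. *Csf2ra*, which binds GM-CSF, measured 1.40 FPKM in ESCs, 1.18 in MES, 0.781 in HB, 1.02 in HE, 2.27 in HP and 63.6 in MAC. It was already detected in ESCs, and its call came at the last step, by 4.30 from HP to MAC. *Il3ra*, which binds IL3, measured 1.49, 2.70, 2.12, 2.77, 2.83 and 19.6 FPKM in the same order, with no call before the step from HP to MAC, where it differed by 2.43. *Il5ra*, which binds IL5, stayed at or below 0.0732 FPKM.

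The balance between the chains therefore turned over at HP. *Csf2rb* stood at 0.00199 times the level of *Csf2ra* in HB, 0.330 times in HE, 3.81 times in HP and 2.15 times in MAC. Against *Il3ra* it stood at 0.121 times in HE, 3.06 times in HP and 6.99 times in MAC. In HE the alpha chain was the more abundant transcript in both pairs, and in HP and MAC the beta chain was.

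**Figure D2:**
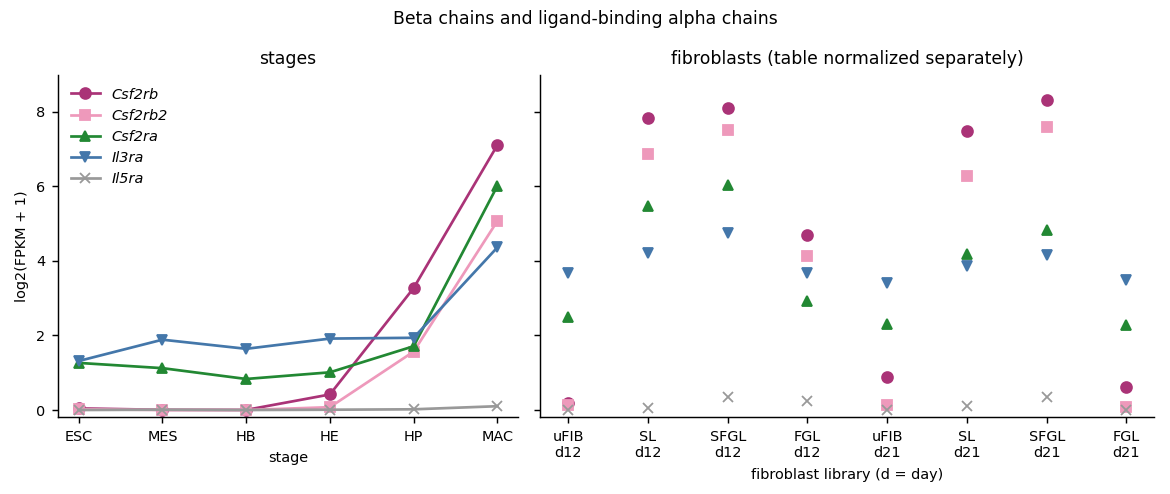
Levels on the log2(FPKM + 1) scale (vertical axis) of the beta chains *Csf2rb* and *Csf2rb2* and the alpha chains *Csf2ra*, *Il3ra* and *Il5ra* in the 6 stages (left, joined by lines) and the 8 fibroblast libraries (right, 1 point per library; that table was normalized separately). *Csf2rb* lies below *Csf2ra* and *Il3ra* through HE and above both in HP, MAC, SL, SFGL and FGL at day 12, while *Il5ra* stays near 0.

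*Csf3r*, the G-CSF receptor of neutrophils, measured 0.0135 FPKM in ESCs, 0 in MES and HB, 0.0120 in HE, 0.985 in HP and 2.52 in MAC. Its change from HE to HP, 0.97 on the log2(FPKM + 1) scale, lay just outside the limit, and it was 1.06 after upper-quartile scaling. *Csf1r*, the M-CSF receptor of macrophages, measured 2.97 FPKM in HP and 234 in MAC, where it was 92.6 times as abundant as *Csf3r*.

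*Il6ra* measured 0.592 FPKM in ESCs, 0.628 in MES, 0.281 in HB, 0.159 in HE, 1.65 in HP and 8.97 in MAC. It was lowest in HE and was called higher at both later steps, by 1.19 and 1.91 on the log2(FPKM + 1) scale. Its partner *Il6st* was the more abundant in every stage, by 126 times in HE and 5.89 times in HP.

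Counted by step, 0 members were called from ESC to MES, where 6.08% of the 12119 genes tested were called higher and 6.39% lower. None was called from MES to HB either, against 2.13% higher and 2.78% lower. *Csf2rb*, *Csf3r* and *Il6ra* were below 1 FPKM in ESCs, MES and HB, so they could not be called lower at these steps or from HB to HE. Nor could *Epor* from MES to HB, from 0.883 FPKM in MES, or *Csf2ra* from HB to HE, from 0.781 FPKM in HB. From HB to HE 1 member was called higher, *Kit*, and 0 lower, against 7.43% and 4.13% of genes. HE was sorted on the protein made by *Kit*, so this call cannot be told apart from the sort. The HE value comes from an earlier series, so the steps into and out of HE also compare different series. From HE to HP 3 of the 7 members, *Epor*, *Csf2rb* and *Il6ra*, were called higher and 0 lower, against 4.4% and 8.2% of genes. *Csf2rb*, *Csf3r* and *Il6ra* were below 1 FPKM in HE, so they could not be called lower at this step. From HP to MAC 4 of the 7, *Csf2ra*, *Csf2rb*, *Il3ra* and *Il6ra*, were called higher against 29.8% of genes, and 2, *Kit* and *Epor*, lower against 12.4%. *Csf3r*, at 0.985 FPKM in HP, could not be called lower at this step. The median of all genes tested itself moved by 0.29 at this step as deposited and by -0.18 after upper-quartile scaling. Relative to the deposited median, *Csf2ra* differed by 4.02, *Csf2rb* by 3.55, *Il3ra* by 2.14, *Il6ra* by 1.63, *Kit* by -3.98 and *Epor* by -1.66, and upper-quartile scaling turned none of these directions.

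Other receptors of the same families were also called at the later steps. Against 4.4% of all genes higher and 8.2% lower from HE to HP, 4 of 12 tested were called higher, among them *Csf1r* by 1.85, and 3 were called lower, among them *Lifr*, the leukemia inhibitory factor receptor, by -2.09. From HP to MAC, against 29.8% and 12.4% of genes, 8 were called higher, with *Csf1r* at 5.89, *Il7r* at 5.70 and *Il6st* at 3.40, and 2 lower, among them *Lifr* at -1.94. The median of this list moved by 2.41 against 0.29 for all genes.

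Downstream of the receptors, 5 of 10 JAK kinases and STATs were called higher from HP to MAC and 0 lower, with *Jak1* at 2.11, at a step where 29.8% of all genes were called higher and 12.4% lower. *Jak2*, the kinase carried by Epor and the beta chain, was close to level at that step, at 13.9 and 16.1 FPKM. *Stat5a* and *Stat5b*, main targets of these receptors, measured 8.33 and 15.6 FPKM in HP and 4.39 and 11.5 FPKM in MAC. Of 8 feedback inhibitors 5 were called higher and 0 lower from HP to MAC, against the same 29.8% and 12.4%, among them *Cish*, a STAT5 target that damps cytokine signals, from 0.442 to 10.3 FPKM. *Ptpn6*, a phosphatase that acts on Kit and Epor, was called higher from HE to HP, from 5.68 to 30.1 FPKM, and again to 111 FPKM in MAC. Of 5 signal adaptors 2 were called higher at the last step, near the 29.8% of all genes, *Vav1* at 2.42 and *Grb2* from 11.8 to 57.4 FPKM. *Gab2*, *Ptpn11*, *Inpp5d*, *Stat3* and *Pdgfrb* were not analysed here in the stages.

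In MAC, markers of other blood cells accompanied the receptor levels. *Cpa3*, a mast cell protease, measured 18.7 FPKM in MAC against 0.248 in HP, and *Prg2*, an eosinophil granule protein, 29.6 against 0. The other 3 mast cell markers and the other 2 eosinophil markers were below 1 FPKM in MAC, and of the 4 neutrophil markers *S100a8* was at 39.1 FPKM and *Ltf* at 1.57 FPKM, higher than in HP, while *Mpo* was at 0.584 FPKM and *Elane* at 0.0306 FPKM, lower than the 9.57 and 1.52 FPKM of HP. The part of such cells in *Csf2rb*, *Csf2ra* and *Il3ra* was not tested.

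**Figure D3:**
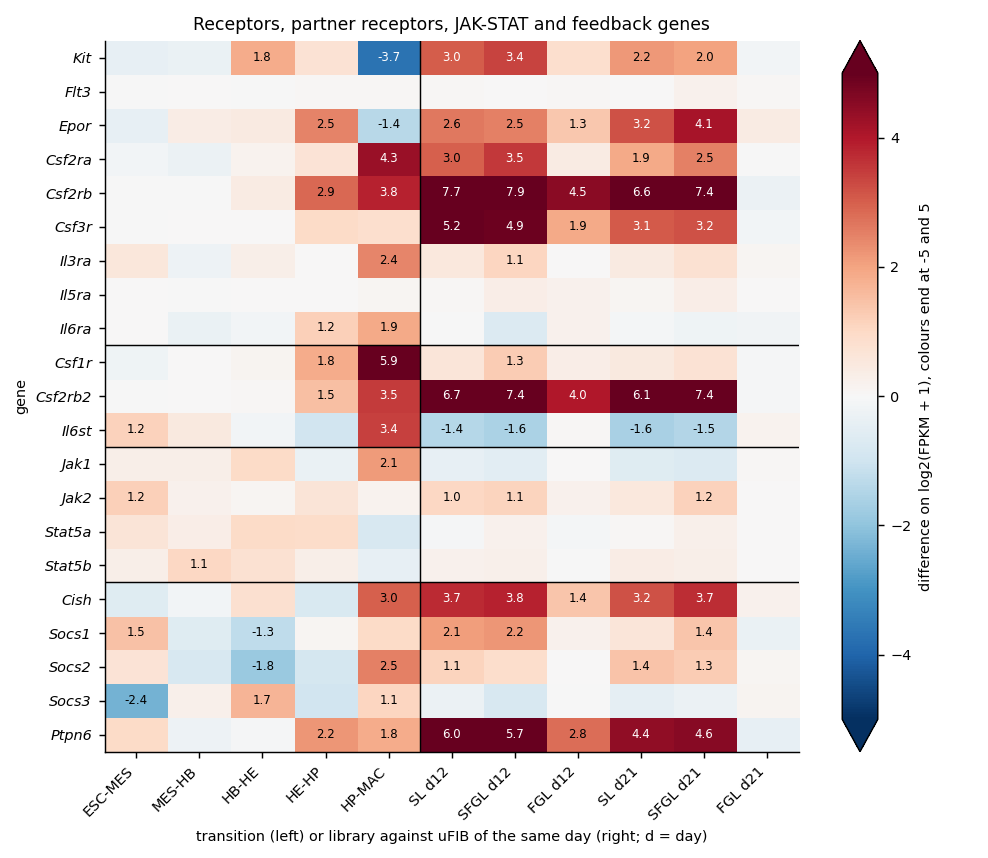
Difference on the log2(FPKM + 1) scale (colour, blue lower, red higher; numbers where at least 1 in size) for the 9 receptors, 3 other receptors, 4 JAK and STAT genes and 5 feedback genes (rows, separated by lines) at the 5 transitions (left) and in each treated fibroblast library against uFIB of the same day (right). *Csf2rb* and *Csf2rb2* are red from the step HE to HP onwards and in SL and SFGL at both days, *Il6st* is red in MAC but blue in SL and SFGL, and the column for FGL at day 21 is pale throughout.

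In fibroblasts the comparison asks which receptors appeared when blood transcription factors were supplied. At day 12 the 9 receptors summed to 24.3 FPKM without factors (uFIB), 349 with SL, 416 with SFGL and 58.1 for the FGL library. At day 21 the sum was 18.7 FPKM without factors, 235 with SL, 398 with SFGL and 18.6 in the FGL library. In both uFIB libraries *Il3ra* was the highest member, and in SL and SFGL at both days *Csf2rb* was, with 65.3% to 79.3% of the sum.

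Untreated fibroblasts already held 3 of the 9 receptors at 1 FPKM or more. *Il3ra* was at 11.8 and 9.58 FPKM at day 12 and day 21, *Il6ra* at 7.04 and 3.53 FPKM, and *Csf2ra* at 4.62 and 3.93 FPKM. All 3 are alpha chains, and the chains they signal through differed: *Il6st* was at 297 and 278 FPKM, while *Csf2rb* was at 0.132 and 0.853 FPKM.

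**Figure D4:**
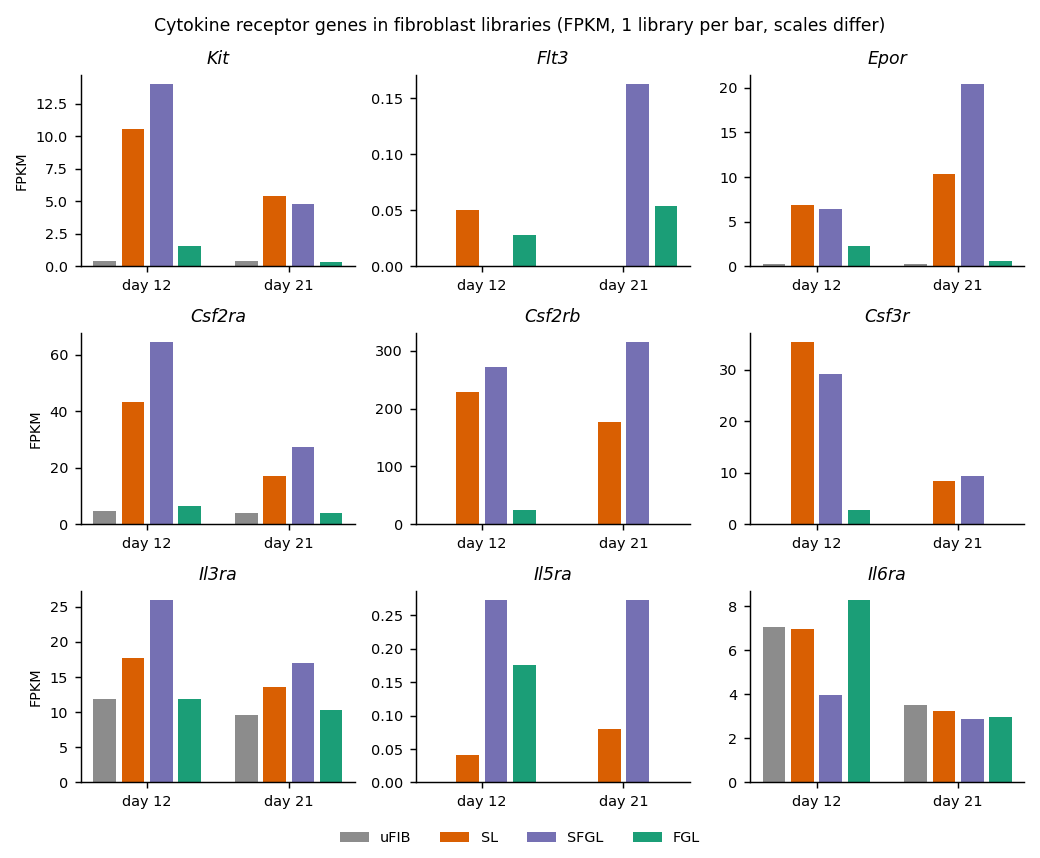
FPKM (vertical axis, linear from 0, with its own scale for each gene) of the 9 receptor genes in the 8 fibroblast libraries, 1 library per bar, grouped by day and coloured by condition. *Kit*, *Epor*, *Csf2ra*, *Csf2rb* and *Csf3r* are higher in SL and SFGL than in uFIB at both days, FGL shows lower bars at day 12 and bars near uFIB at day 21, and *Il6ra* shows no such step.

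At day 12 *Csf2rb* measured 228 FPKM with SL, 272 with SFGL and 24.7 with FGL, and at day 21 177, 315 and 0.530 FPKM. SL and SFGL exceeded uFIB by 6.58 to 7.91 on the log2(FPKM + 1) scale, the largest differences of any member. *Csf2rb2* measured 115, 181 and 16.6 FPKM at day 12 and 77.2, 191 and 0.0631 at day 21, against 0.0988 and 0.104 in uFIB. *Csf2rb* stood at 1.98 and 2.29 times *Csf2rb2* in SL (day 12 and day 21) and at 1.65 times in SFGL at day 21, while the ratio was 4.20 in MAC, in a table normalized separately.

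*Csf2ra* at day 12 measured 43.2 FPKM with SL, 64.6 with SFGL and 6.55 with FGL, and 17.1, 27.5 and 3.85 at day 21. The beta chain, at 0.0285 times *Csf2ra* in uFIB at day 12, was at 5.28 times in SL and 4.20 times in SFGL, and at 10.4 and 11.5 times at day 21. *Il3ra* measured 17.7, 26.0 and 11.8 FPKM at day 12 and 13.6, 17.0 and 10.3 at day 21. Only SFGL at day 12 was called for *Il3ra*, by 1.08, just inside the limit, and SFGL at day 21 lay outside it at 0.77.

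*Il5ra* stayed at or below 0.273 FPKM in all 8 libraries, although 3 eosinophil markers were high. *Epx*, *Prg2* and *Ear1*, which encode granule proteins of eosinophils, summed to 1589 FPKM (SL) and 5696 FPKM (SFGL) at day 12, and by day 21 to 2696 and 10694 FPKM, against 1.32 and 1.33 FPKM in uFIB. All 3 were above 1 FPKM in SL and SFGL at both days, while *Il5ra*, known from eosinophils, was not.

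*Csf3r* at day 12 was listed at 35.5 FPKM for SL, 29.2 for SFGL and 2.76 for FGL, against 0.0161 for uFIB. At day 21 it measured 8.48, 9.32 and 0.0275 FPKM, against 0.124 in uFIB. *Csf1r* stayed at or below 1.92 FPKM in all 8 libraries, so that *Csf3r* was 40.1 times as abundant as *Csf1r* in SL and 15.1 times in SFGL at day 12, the opposite order to MAC. Neutrophil markers (*Elane*, *Mpo*, *Ltf* and *S100a8*) were high in the same libraries as *Csf3r*: their sums were 15040 FPKM (SL) and 7931 FPKM (SFGL) at day 12, then 5234 and 3387 FPKM by day 21, all 4 of them at 1 FPKM or more and *S100a8* the main part. Among these libraries the order of the markers was not that of *Csf3r*: *Elane* and *Mpo* were higher in SFGL than in SL at day 12, and all 4 were higher in SL at day 21. Their part in the level of *Csf3r* was not tested. In uFIB at day 21 too, *S100a8* was at 126 FPKM against 2.97 at day 12, beside *Csf2rb* at 0.853 against 0.132.

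*Kit* at day 12 was listed at 10.6 FPKM for SL, 14.1 for SFGL and 1.52 for FGL, against 0.429 for uFIB. At day 21 it measured 5.38, 4.81 and 0.2996 FPKM, against 0.423 in uFIB. The starting cells were depleted of CD117+ cells. The 4 mast cell markers summed to 78.3 FPKM (SL) and 123 FPKM (SFGL) at day 12, then 69.3 and 121 FPKM by day 21. Most of the day 12 sums was *Cpa3*, at 70.2 and 116 FPKM. In SFGL *Kit* was called lower at day 21 than at day 12, while the marker sum was nearly level. Blood progenitor markers (*Itga2b*, *Spn* and *Myb*) summed to 288 FPKM (SL) and 384 FPKM (SFGL) at day 12. The part of either set in the level of *Kit* was not tested. *Flt3* stayed at or below 0.163 FPKM.

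*Epor* at day 12 measured 6.84 FPKM with SL, 6.37 with SFGL and 2.23 with FGL, and 10.4, 20.5 and 0.630 FPKM at day 21, against 0.269 and 0.235 in uFIB. It was the 1 member called higher at day 21 than at day 12 in any library. The 4 erythroid markers summed to 139 FPKM (SL) and 81.7 FPKM (SFGL) at day 12, and to 175 and 189 FPKM by day 21, and their part in *Epor* was not tested. The ratio of *Epor* to *Kit* was 0.646 and 0.453 at day 12 and 1.93 and 4.26 at day 21.

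*Il6ra* at day 12 measured 6.98 FPKM with SL, 3.97 with SFGL and 8.28 with FGL, and 3.24, 2.87 and 2.96 at day 21. None of these was called against uFIB of the same day. *Il6st* was called lower in SL and SFGL at both days, at 89.5 to 109 FPKM, and measured 306 and 311 FPKM in FGL.

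Of the 12807 genes tested, 7 of the 9 were members, and *Flt3* and *Il5ra* again fell below 1 FPKM in each library. *Kit*, *Epor*, *Csf2rb* and *Csf3r* were below 1 FPKM in uFIB at both days and passed the limit only through treated libraries. Against uFIB these members could be called higher but not lower. In SL at day 12 5 members were called higher and 0 lower, against 13.7% and 13% of genes. In SFGL at day 12 6 members were called higher and 0 lower, against 14.1% and 16.3% of genes. In FGL at day 12 3 members, *Epor*, *Csf2rb* and *Csf3r*, were called higher and 0 lower, against 2.75% and 0.281% of genes. At day 21, 5 members were called higher both with SL, against 11.5% of genes, and with SFGL, against 13.5%. None was lower in either, against 11.9% and 15.4% of genes. None was called in FGL at day 21, against 0.437% of genes higher and 0.344% lower. The comparisons of 1 day share the same uFIB library, and *Kit*, *Epor*, *Csf2ra*, *Csf2rb* and *Csf3r* were the members called in SL and SFGL at both days.

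Between SFGL and SL no member was called, against 0.773% of genes at day 12 and 1.12% at day 21 in either direction. The nearest to the limit was *Epor* at day 21, 0.92 higher in SFGL. *Csf2rb2* was called higher in SFGL at day 21. *Fli1* itself was not higher in SFGL than in SL at either day, and SL also held *Gata2*, so the labels overstate how these libraries differ.

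Between the days, 0 members were called in uFIB, against 2.88% of genes in either direction. *Kit*, *Epor*, *Csf2rb* and *Csf3r* were below 1 FPKM in uFIB at both days, so no call was possible for them there. In SL 2 members were called lower at day 21, *Csf2ra* by -1.29 and *Csf3r* by -1.94, against 4.4% of genes. In SFGL 4 were called, against 4.58%: *Kit* by -1.38, *Csf2ra* by -1.20 and *Csf3r* by -1.55 were lower, and *Epor* by 1.54 was higher. *Csf2rb* differed by -0.37 in SL and 0.21 in SFGL, so the alpha chain of the GM-CSF receptor was lower at day 21 where the beta chain was not called. In FGL 3 were called lower, *Csf2rb* by -4.07, *Csf3r* by -1.87 and *Il6ra* by -1.23, against 6.86% of genes. The relative depths of the day 21 libraries of SL, SFGL and FGL were 0.609, 0.776 and 0.588 times that of uFIB at day 12.

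The library labelled FGL at day 12 was compared with SL and SFGL by the share of their level it held, each net of uFIB, a measure added after the data were seen. It held 8.03% of the SFGL level of *Kit*, 9.05% of *Csf2rb*, 9.12% of *Csf2rb2* and 9.40% of *Csf3r*. Over all 348 genes at least 10-fold higher in SFGL than in uFIB on FPKM + 1, the median share was 9.79% (quartiles 7.45% and 12.8%). The 4 genes named thus lay within the quartiles. *Epor*, which was not among the 348 genes, stood above the quartiles at 32.1%, and *Csf2ra* below them at 3.21%. Against SL, the shares were 10.8% for *Kit* and for *Csf2rb*, 7.73% for *Csf3r*, 29.8% for *Epor*, 4.99% for *Csf2ra* and 14.3% for *Csf2rb2*, with a median of 10.3% (quartiles 8.07% and 12.5%) over 336 genes. *Kit* and *Csf2rb* thus lay within the quartiles against SL, *Csf3r* below them and *Csf2rb2* above. The 336 genes were selected on FPKM + 1 too, and *Kit*, *Epor* and *Csf2ra* were not among them. At day 21 the median shares were -0.217% against SFGL and -0.327% against SL. Markers of neutrophils and eosinophils summed to 1447 and 569 FPKM in FGL at day 12, but to 6.36 and 0.996 FPKM in FGL at day 21. *Tal1* in this library goes against its label, so a direction drawn from it holds for the library labelled FGL and not for the listed factors.

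**Figure D5:**
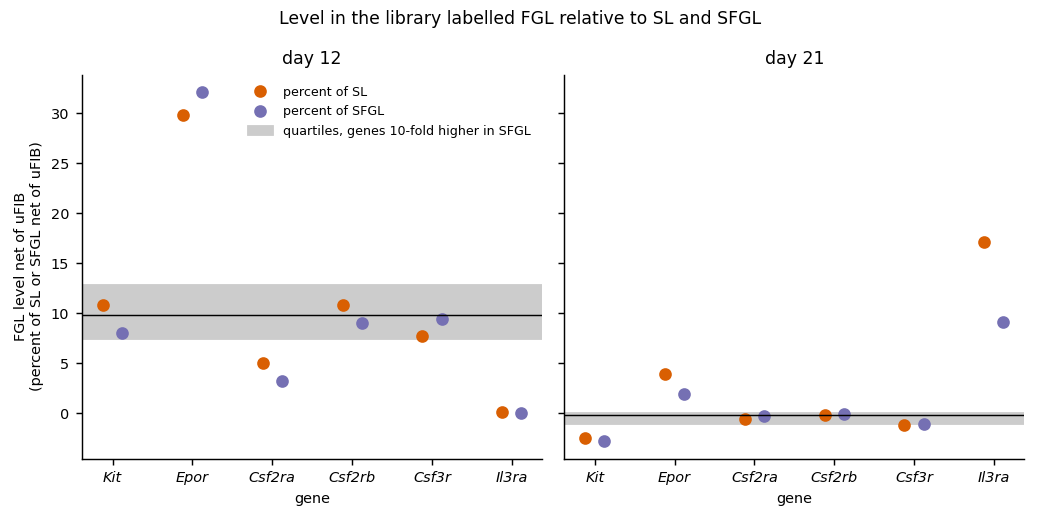
Level in the library labelled FGL net of uFIB, as percent of SL (orange) or SFGL (purple) net of uFIB (vertical axis), for 6 receptor genes at day 12 (left) and day 21 (right), with 1 library behind each value. The grey band marks the quartiles and the line the median of all genes at least 10-fold higher in SFGL than in uFIB. That fold was taken on FPKM + 1. At day 12 *Kit*, *Csf2rb* and *Csf3r* lie on the band for SFGL, *Epor* above it and *Csf2ra* and *Il3ra* below.

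Among the other receptors of these families, fibroblast receptors moved the other way from the blood receptors. Of 13 tested, 7 were called lower in SL and in SFGL at both days: *Il6st*, *Il11ra1*, *Lifr*, *Osmr*, *Ghr*, *Pdgfra* and *Pdgfrb*, which include the gp130 family and the PDGF receptors of mesenchymal cells. Of all genes, 13% (SL) and 16.3% (SFGL) were called lower at day 12, and 11.9% and 15.4% at day 21. At day 12 *Pdgfra* went from 86.6 FPKM in uFIB to 27.2 with SL and 17.8 with SFGL, and *Lifr* from 17.5 to 5.96 and 3.63 FPKM. The fibroblast markers *Col1a1*, *Col1a2*, *Thy1* and *Postn* summed to 5067 FPKM in uFIB and 1535 and 1303 FPKM in SL and SFGL at day 12, and to 3288, 795 and 564 FPKM at day 21.

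Feedback inhibitors were called higher in all 4 SL and SFGL libraries, 6 of 8 in SL and 3 of 8 in SFGL at day 12, and 3 and 4 of 8 at day 21, with 0 lower. Of all genes, 13.7% and 14.1% were called higher at day 12 and 11.5% and 13.5% at day 21. *Cish* went from 3.10 FPKM without factors to 52.7 with SL and 57.7 with SFGL at day 12, and by day 21 from 2.95 to 35.1 and 50.2 FPKM. *Ptpn6* went from 0.438 FPKM to 90.7 and 75.1 at day 12. In FGL at day 12 these were the 2 called, *Cish* at 9.62 and *Ptpn6* at 9.10 FPKM, and none was called in FGL at day 21. Of 8 adaptors, *Vav1* and *Inpp5d*, both of blood cells, were called higher in SL and SFGL at both days, and *Gab1* was called lower. Of 10 JAK kinases and STATs, *Jak2* and *Stat4* were called higher in SL and SFGL at day 12, while *Stat5a*, *Stat5b* and *Jak1* were not called in any of the 6 comparisons.

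Several ligands were nearly absent as transcripts. *Il3*, *Il5* and *Csf2*, the ligands of receptors that use the beta chain, and *Epo* stayed below 0.4 FPKM in every stage and library, and *Csf3* did too. *Csf1*, the ligand of Csf1r, was abundant in MAC, at 176 FPKM against 4.22 in HP, and in all fibroblast libraries, at 65.2 to 161 FPKM. *Kitl* measured 5.87 and 9.76 FPKM in uFIB and 3.66 to 7.95 FPKM in SL and SFGL, with no call in fibroblasts. *Il6* was called higher in SL and SFGL at both days, reaching 10.99 and 12.0 FPKM at day 12, against 3.72 in uFIB, and 11.3 and 23.4 FPKM at day 21, against 3.60.

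Genes of most similar pattern were ranked by Pearson's r on log2(FPKM + 1) among genes reaching 10 FPKM, over 6 stages (7157 genes) and over 8 libraries (7904 genes). The points share samples and normalization, so r is a description only. For *Csf2rb* these included *Myd88* and *Hcls1* over stages and were *Myb*, *Nfe2* and *Spn* over libraries, each with r = 0.999. For *Epor* they were *Ncor1*, *Beta-s* and *Atp2a3* over stages (0.988 to 0.985) and *Acss1*, *Mylk3* and *Gp9* over libraries (0.995 to 0.992). For *Csf3r* they were *Ccr2*, *Il10ra* and *Btk* over stages and *Lilrb3*, *Arhgap30* and *Prkcb* over libraries. For *Kit* the stage pattern had looser matches, *Rpl22l1* at 0.983 and *Timp3* at 0.943, while over libraries *Tmx4*, *Cd300lb* and *Rnf130* gave 0.998 to 0.999.

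Between the members themselves, *Csf2ra* and *Csf2rb* gave r = 0.945 over the 6 stages and 0.914 over the 8 libraries. *Kit* and *Csf2ra* gave -0.603 over stages and 0.986 over libraries. In MAC *Csf2ra* was high and *Kit* low, and in SL and SFGL both were above uFIB. *Il6ra* stayed between -0.257 and 0.0508 with the other 6 members tested over libraries.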

How the data were processed

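RNA-seq was measured in 18 samples: 2 each of ESC, MES, HB, HP and MAC, and 8 fibroblast libraries. The authors deposited FPKM values made with Cufflinks against mm10 from ribosome-depleted RNA, for the stages from uniquely aligned, deduplicated SOLiD reads. Replicates were combined into 1 value per stage, and fibroblast libraries have 1 value each. For ESC samples the processing notes name Bowtie and HOMER, and for fibroblasts TopHat, and versions are not given in the sources used here. The 2 tables were normalized separately, so levels are compared within each. Here the transcription start rows of a gene were summed, log2(FPKM + 1) was used (pseudocount 1, which understates changes of low genes), and a gene was called at a 2-fold difference among genes with at least 1 FPKM in some column. The numbers 2 and 1 follow the study, which applied its 2-fold limit to read counts with a test, so the calls here are not the study's calls. No test was run: the columns hold no replicate values, and the days of a condition were not treated as replicates. The call script was tested on simulated data. The members and gene lists were chosen with earlier results of these data known. All 9 members are named. Genes from the lists were named by their calls and largest differences, and those of similar pattern by the 3 highest correlations. Genes singled out for being near 0 or just outside the limit were chosen after their values were seen. Alternatives were other pseudocounts, scaling, fold and expression limits, the highest start row, and an average of the uFIB libraries of day 12 and day 21 as reference. Python 3.11.15, NumPy 2.4.6, pandas 2.3.3 and matplotlib 3.10.9 were used. Depth per sample is not stated in the files, so counting intervals could not be given. Some genes of the lists are not reported here.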

Additional observations from a re-analysis of the deposited data

Results flagged for a closer look

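Against uFIB of the same day, *Csf2rb* in the library labelled FGL was 4.50 higher on the log2(FPKM + 1) scale at day 12 and -0.28 at day 21, and *Csf3r* was 1.89 higher and -0.13. Both stand out because the only library of each day lay on opposite sides of its control. At day 21 the side depends on the uFIB library used, and all values concerned are below 1 FPKM. *Csf2rb* in FGL was at 0.530 FPKM, against 0.853 in uFIB at day 21 and 0.132 in uFIB at day 12. *Csf3r* was at 0.0275 FPKM, against 0.124 and 0.0161. The difference between days was not tested, since each value rests on 1 library, and the day 21 values are within the limit of a call. At day 12 the same library held *Tal1* against its label.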

How the results depend on the processing

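No paired analysis was possible because the stage columns already combine the replicates and each fibroblast condition has 1 library per day; for the same reason no replicate could be left out. Upper-quartile scaling, no filter on low values, a limit of 5 FPKM, the highest start row and an average of the uFIB libraries of day 12 and day 21 as reference left every count of members within 1.5 times its value, and no called difference changed direction under the alternatives run. With pseudocount 0.1, members called higher were 2 from HB to HE, 5 from HE to HP and 1 in FGL at day 21, and 1 was called in uFIB and 5 in FGL between days. With pseudocount 0.001, where values near 0 decide the calls, 2 were lower from ESC to MES and 1 from MES to HB, 3 were higher from HB to HE, 5 from HE to HP and 1 in FGL at day 21 with 1 lower, and 2 were called in uFIB and 5 in FGL between days. With a limit of 4-fold, 0 were higher from HB to HE, 1 lower from HP to MAC, 1 higher in FGL at day 12, and 0, 0 and 1 were called between days in SL, SFGL and FGL. The median share of FGL in SFGL at day 12 was 9.59% and 9.56% for genes at least 5-fold and 20-fold higher on FPKM + 1. That in SL was 10.3% for both, and these alternatives were added after the data were seen. With 1 value per column, sampling and biological variation could not be estimated, and differences of low FPKM rest on few reads.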
